A study of Mus musculus with 77 samples.

Results

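Cd79a, Cd79b, Ms4a1, Cd22, Blk, Fcer2a, Cr2, Pax5 and Ebf1 are 9 genes used to recognise B lymphocytes, and they were followed here in the blood of B6 and D2 mice after chronic social defeat stress (CSDS). They were chosen by gene symbol, and all 9 were among the 13084 genes of the blood mRNA table. The samples were 25 male mice of 8 weeks, in 5 groups of 5: B6 controls, B6 resilient mice, B6 susceptible mice, D2 controls and D2 susceptible mice. The labels name the strains C57BL/6Crl (B6) and DBA/2Crl (D2), which are C57BL/6NCrl and DBA/2NCrl in the study's methods. Defeated mice met a new CD-1 aggressor each day, and trunk blood was taken 6 to 8 days after the last defeat. Controls lived in pairs behind a perforated divider with a new neighbour each day and were never attacked. Resilient and susceptible mice were told apart by social avoidance, and mice at the extremes of that behaviour were selected, so that these groups do not represent all defeated mice. Resilient D2 mice gave too little blood, and the blood data hold none of them. The labels name no transgene or drug, and whole blood was used without sorting of cells.

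A pair of D2 mice carries conflicting records, in the mRNA and in the miRNA data alike. The mouse named here D2 control replicate 2 is a control by its label, but its data column is named as susceptible, and D2 susceptible replicate 2 is susceptible by its label with a column named as a control. Each mouse code ends in a number, and within every other code prefix the controls have higher numbers than the defeated mice. In the prefix of this pair that order holds by the column names and not by the labels. Which record is right was not settled here. The groups of the labels were used throughout, and the D2 results of the B cell genes are also given with the groups of the column names and without both mice. The levels of the B cell genes in D2 control replicate 2 were the highest of all D2 controls for all 9 genes, which makes the records matter for this gene group.

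B cells recognise antigen through a membrane immunoglobulin that cannot signal by itself. CD79A and CD79B, which form the signalling part of the B cell receptor, pass the signal to kinases such as BLK, while CD22 dampens it and CR2, a complement receptor, lowers the amount of antigen needed. MS4A1 (CD20) is a membrane protein of mature B cells, FCER2A (CD23) is a low-affinity IgE receptor of mature B cells, and EBF1 and PAX5 are the transcription factors that establish and keep B cell identity. In blood, a lower level of such genes can reflect fewer B cells or less RNA per B cell, and bulk RNA cannot tell these apart.

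The 2 promoters below belong to Cd79a, a receptor subunit whose gene is a known target of EBF1 and PAX5, and to Cd22, the member with the largest difference between the strains. They span 250 bases before to 50 bases after the RefSeq transcript start and are written 5′ to 3′ on the gene's strand from RefSeq, build GRCm38.p6. Capitals mark matches on either strand to CCCNNGGG (the palindromic core of EBF sites), GGAAGT (an ETS core) or CAGGTG (an E-box).
Cd79a, chr7:24897247-24897546, plus strand: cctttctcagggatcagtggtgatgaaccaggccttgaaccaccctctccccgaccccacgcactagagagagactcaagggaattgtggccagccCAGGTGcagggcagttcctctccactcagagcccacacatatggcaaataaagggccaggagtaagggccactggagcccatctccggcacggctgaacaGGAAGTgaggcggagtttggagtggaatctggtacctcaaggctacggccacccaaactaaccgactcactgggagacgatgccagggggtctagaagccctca
Cd22, chr7:30878979-30879278, minus strand: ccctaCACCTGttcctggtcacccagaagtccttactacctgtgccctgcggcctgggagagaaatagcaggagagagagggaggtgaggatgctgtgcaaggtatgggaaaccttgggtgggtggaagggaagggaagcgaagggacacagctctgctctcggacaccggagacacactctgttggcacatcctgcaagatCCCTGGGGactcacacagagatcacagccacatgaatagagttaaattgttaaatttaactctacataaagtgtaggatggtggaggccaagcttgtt

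Promoter windows were given for 6 of the 9 genes, 9 windows in all, since Fcer2a and Ebf1 have several starts. An exact match to the EBF core was found in the Cd22 window alone, 48 bases before the start, and in 13.7% of all 32851 windows. Sites whose letters differ from the pattern are not found this way, so a window without a match can still hold a site. The ETS core lay in windows of Cd79a, Cr2, Ebf1 and Fcer2a, 4 of 9 against 23.8% of all windows, and the E-box in windows of Cd22, Cd79a, Cr2 and Fcer2a, 4 of 9 against 20.2%. The octamer ATTTGCAT, a site of B cell octamer factors, was in no window of the members and in 1.74% of all. These matches describe the letters of the reference genome and were not linked to a measurement of binding.

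The levels of the 9 genes spanned a wide range. On the scale of mean log2 CPM per kb of exon over the 25 mice, Cd79b was highest at 7.49, followed by Ms4a1 at 5.45, Fcer2a at 3.83, Cd22 at 3.60, Blk at 3.44, Cr2 at 2.57, Cd79a at 2.35, Pax5 at 1.35 and Ebf1 at -0.47. Cd79a and Cd79b, whose proteins pair in the receptor, were thus far apart in read density: Cd79a received 49 to 247 reads per mouse over 1457 exon bases, and Cd79b 1628 to 9019 reads over 1431 exon bases. In each mouse the log2 CPM of Cd79a was 4.72 to 5.62 below that of Cd79b, in B6 and in D2 mice. Ebf1 was about as sparse as Cd79a, at 49 to 200 reads. No other member had fewer than 166 reads in a mouse. In GENCODE M21 on GRCm38, Cd79a lies at chr7:24897381-24902197 on the plus strand, Cd22 at chr7:30865402-30880342 on the minus strand, and Cd79b at chr11:106311341-106314762 on the minus strand. Exon lengths and overlaps given here are those of this annotation, whereas the study counted reads with another annotation release. Pax5 shares 125 and 636 exon bases with 2 transcripts of the opposite strand, and Cd22 shares 479 with one. Whether counting used the strand is not given in the sources used here, so that reads of these bases cannot be assigned.

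Total reads on genes ranged from 9751603 to 15878495 per mouse (median 13290205). The deposited values are scaled to effective library sizes of 0.644 to 1.53 times these totals, and genes of the red cell and platelet lists took 9.50% to 19.05% of the reads. Replicates are separate mice.

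**Figure D1:**
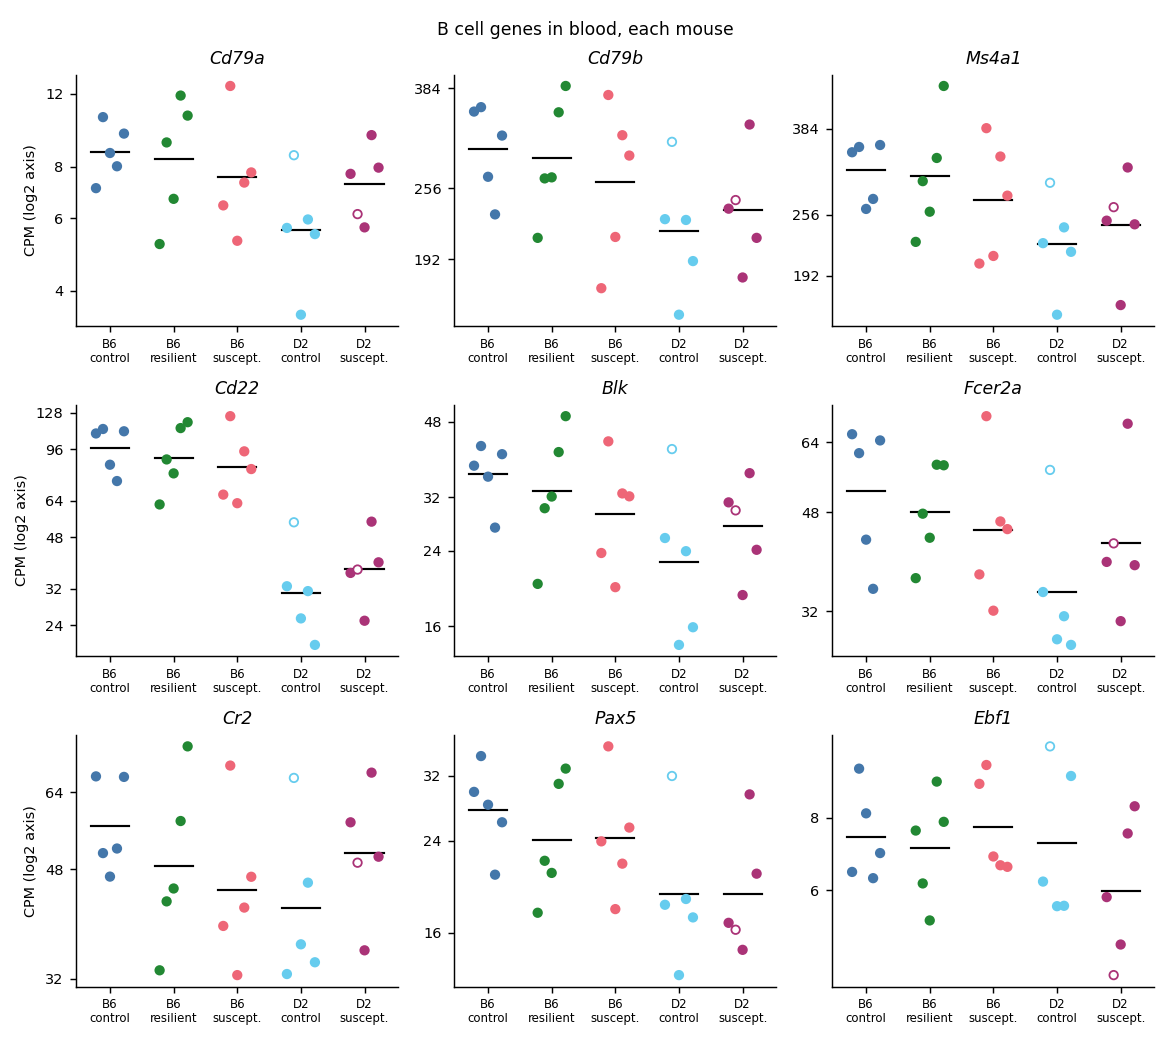
CPM (log2 axis) of each B cell gene in each mouse, by group; black lines are the means of the 5 log2 values, and open circles are the 2 D2 mice whose label and column name differ. By the labels Cd22 is the gene for which D2 and B6 controls lie apart, and without the open circles the controls also lie apart for the other genes except Ebf1.

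The comparison of control mice asked how the strains differ without defeat. These controls were bled in the same period as the defeated mice and are not a baseline from before the protocol. The study's timeline also places a social avoidance test and a forced swim test ahead of tissue collection. Most B cell genes were lower in D2 than in B6 controls, and Cd22 was lower by far. The inhibitory receptor gene Cd22 stood at 109, 113, 85.1, 74.8 and 111 CPM in the B6 controls and at 32.6, 54.0, 25.3, 31.4 and 20.5 CPM in the D2 controls. All 5 D2 controls were below all 5 B6 controls, and by the labels Cd22 was the member of which this held. By the column names it held for Cd79a and Pax5 as well, and without both conflicting mice for 8 of 9 members, all but Ebf1. Its fitted log2 change was -1.65 ± 0.24 (SE, n = 5 and 5), a fold of 3.13 (limma, P = 3.58e-07, Padj = 1.49e-05), and the exact two-sided permutation test gave its smallest possible p for 5 against 5, 0.00794. Groups that do not overlap, with D2 lower, were found by the labels for 5.59% of all genes, by the column names for 6.82% and without both mice for 7.57%.

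Of the 9 genes, 7 were nominally lower in D2 controls (P under 0.05 and a fold of at least 1.2), none was higher, and Cr2 and Ebf1 did not pass. This call was reached by 11.4% of all genes in the lower direction and 26.4% in both. The median log2 change of the 9 genes was -0.54, against 0.01 for all genes. After adjustment over all genes Cd22 alone remained, where 6.71% of all genes were lower at Padj under 0.05.

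Among the signalling genes, Cd79a stood at 7.09, 10.5, 8.63, 8.01 and 9.61 CPM in B6 controls and at 5.68, 8.52, 3.50, 5.96 and 5.49 CPM in D2 controls. The second D2 value, that of the mouse with conflicting records, lay inside the B6 range and the other 4 lay below it. Its log2 change was -0.63 ± 0.24 (SE; limma P = 0.0155, Padj = 0.0818; exact permutation p = 0.0238). Cd79b changed by -0.48 ± 0.22 (limma P = 0.0387) and the kinase gene Blk by -0.68 ± 0.26 (limma P = 0.0160), although the exact permutation p of Blk was 0.0635.

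Of the surface markers, Ms4a1 stood at 344, 352, 263, 276 and 355 CPM in B6 controls and at 224, 298, 160, 241 and 215 CPM in D2 controls. Again D2 control replicate 2 was the D2 mouse inside the B6 range. Ms4a1 changed by -0.50 ± 0.21 (limma P = 0.0262, Padj = 0.120; exact permutation p = 0.0238), and Fcer2a by -0.60 ± 0.24 (limma P = 0.0187; exact permutation p = 0.0556). Cr2, at a difference of -0.44 with a 95% interval from -0.92 to 0.04, did not pass. Of the transcription factors, Pax5 changed by -0.54 ± 0.23 (limma P = 0.0280; exact permutation p = 0.0714), and Ebf1, at a difference of -0.04 with an interval from -0.48 to 0.41, did not pass. A difference between both genes was not tested.

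The count depended on the 2 conflicting mice, on single mice, on the scaling and on the mouse code. With the groups of the column names 8 of 9 genes were nominally lower, against 13.3% of all genes, 5 of them at Padj under 0.05 (7.75% of all genes), and Cd22 changed by -1.75 ± 0.22. Without both mice the counts were 8 and 5 as well, against 12% and 6.84% of all genes, and Cd22 changed by -1.85 ± 0.23. In both cases Ebf1 was the gene that did not pass. Leaving out D2 control replicate 3 left 2 genes called (Cd22 and Fcer2a), B6 control replicate 1 or D2 control replicate 5 left 3, and B6 control replicate 2 or 5 left 4, and Cd22 was called in each case. For fits without a single mouse the shares of all genes are not given here, so these counts cannot be set against them. When each library was scaled to its total reads, the median of all genes moved to 0.18 and that of the members to -0.37. Cd22 alone was then called, at -1.48, where 822 of all 13084 genes were called lower, against 1494 in the main fit. Ebf1 changed sign to 0.13. With the codes of each strain as a term, coded as deviations from the mean of that strain's codes, 2 genes stayed called (Cd79a and Cd22), and Blk, Ms4a1, Pax5, Fcer2a and Cd79b lost their call. Over all genes 1293 were called lower in that fit. Each code occurs in a single strain, so that an effect common to all codes of a strain cannot be told apart from the strain. Reads of both strains were aligned to the B6-based reference, and the part of this in the D2 values was not tested.

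Within single mice, the level of Cd22 relative to Cd79b also differed between the strains. The log2 CPM of Cd22 minus that of Cd79b was -1.83 to -1.34 in the 15 B6 mice and -3.21 to -2.41 in the 10 D2 mice. These ranges did not overlap, and they do not depend on the scaling of libraries or on the group assigned to the 2 conflicting mice. For each of the 7 other genes the ranges of B6 and D2 mice overlapped. Ms4a1 minus Cd79b was -0.06 to 0.28 in B6 and -0.09 to 0.23 in D2, and Pax5 minus Cd79b was -3.87 to -2.83 in B6 and -3.91 to -3.27 in D2. This contrast was computed for all members with their levels known, and it is given without a test.

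**Figure D2:**
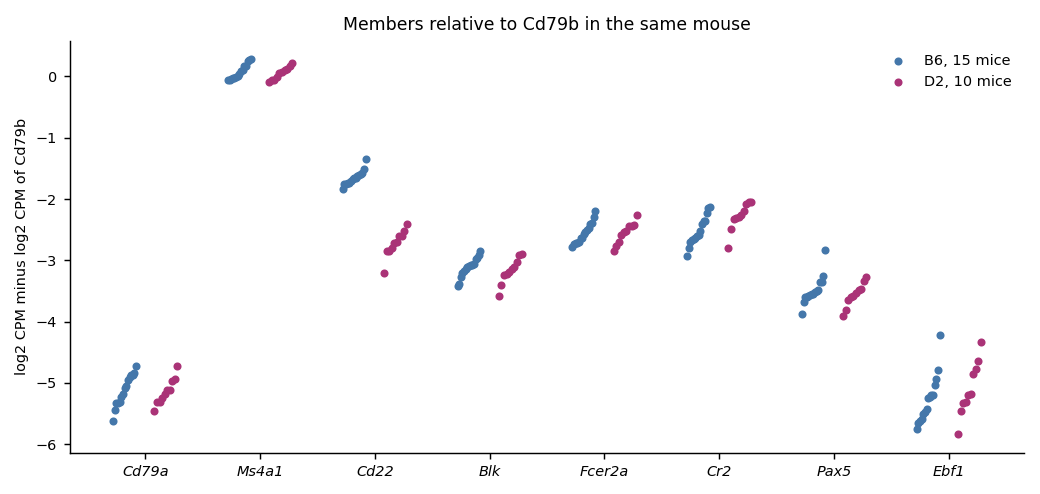
log2 CPM of each gene minus the log2 CPM of Cd79b in the same mouse, for 15 B6 and 10 D2 mice, sorted by value within a strain. Cd22 runs from -1.83 to -1.34 in B6 and from -3.21 to -2.41 in D2, and each of the other genes overlaps between the strains.

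Other gene lists were read against the shares of all genes, 11.4% called lower and 15% called higher in D2 controls by the labels. Of 17 genes of B cell receptor signalling, 5 were nominally lower in D2 controls, among them Siglecg and Bank1, and 2 higher (Lyn and Dapp1). The inhibitory lectin gene Siglecg changed by -0.84 ± 0.25 (limma Padj = 0.0233), and the kinase gene Lyn, which myeloid cells also express, by 0.65 ± 0.21 (limma Padj = 0.0365). Of 6 immunoglobulin chain genes 4 were lower and none higher, with Ighm, the IgM heavy chain, at -0.51 ± 0.22 (limma Padj = 0.123). The lambda constant genes Iglc1, Iglc2 and Iglc3 are near-identical copies whose reads cannot be assigned with certainty. Of 10 further B cell transcription factors 3 were lower and 1 higher, and of 10 receptors for survival and homing 4 were lower and 1 higher. The IgM Fc receptor gene Fcmr had the smallest P among these receptors and changed by -1.14 ± 0.23 (limma Padj = 0.000856).

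Of 8 class II antigen presentation genes 7 had a negative value, with a median log2 change of -0.29, and 2 passed. H2-Ob, a B cell modulator of peptide loading, changed by -1.44 ± 0.26 (limma Padj = 0.000297), and H2-Oa by -0.68 ± 0.26, while the other 6 did not pass. Of the plasma cell list, Jchain, which joins IgM and IgA units, was the 1 gene of 6 to pass, and it was higher in D2 controls by 1.66 ± 0.34 (limma Padj = 0.00105). In this list 4 of 6 genes had a negative value, and the median log2 change was -0.09. By the column names and without both mice, Sdc1 and Irf4 were also called lower, as were 13.3% and 12% of all genes. The precursor genes Vpreb1, Vpreb2 and Rag2 were not among the 13084 genes, and of the 5 that were, Cd93, which endothelial and myeloid cells also express, was higher by 1.33 ± 0.21.

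Markers of other blood cells were called in the same comparison. Platelet genes were higher in D2 controls in 6 of 10 cases with a median log2 change of 0.98, and their summed log2 CPM ran from 10.8 to 12.7 in B6 controls and from 11.9 to 13.9 in D2 controls. Of 15 T cell genes 4 were higher and 2 lower, and summed T cell log2 CPM ran from 8.66 to 9.04 and from 8.87 to 9.30. Of 10 neutrophil genes 2 were higher and none lower, of 8 NK cell genes 3 were lower, and of 11 red cell genes 2 were higher and 4 lower. In monocytes 1 of 9 genes was higher, and of 6 genes of plasmacytoid dendritic cells 1 was higher and 2 lower. The counts of the neutrophil and monocyte lists are near the 15% of all genes called higher. By the column names the median of the neutrophil genes was 0.11 in place of 0.53, that of the platelet genes 1.19 with 8 of 10 higher, and that of the T cell genes 0.14 in place of 0.15. The part of these cells in the B cell values was not tested.

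**Figure D3:**
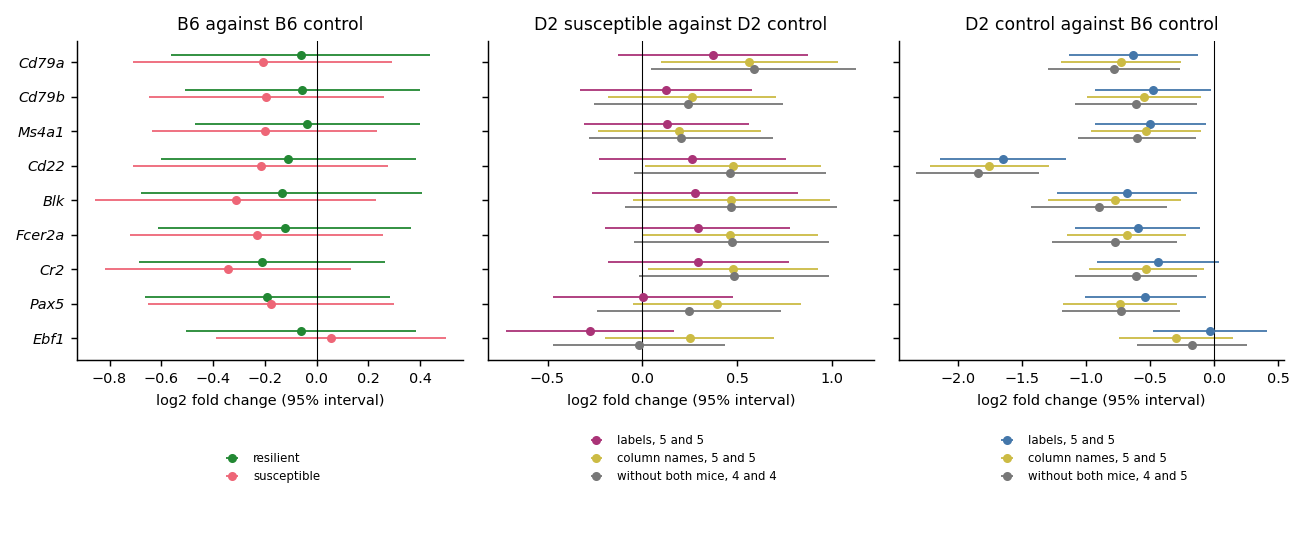
Fitted log2 fold change of each gene with its 95% interval (limma) in B6 defeated groups against B6 controls (left), in D2 susceptible mice against D2 controls (middle) and in D2 against B6 controls (right); colours give the groups or the grouping of the D2 mice. In B6 every interval spans 0, and the Cd22 point of the strain comparison lies at -1.65 by the labels.

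In B6 mice the defeated groups were compared with controls and with each other, and no B cell gene passed in any of the 3 comparisons (limma; none had an unadjusted P under 0.05). In resilient mice all 9 point estimates were below 0, with a median log2 change of -0.11 against 0.02 for all genes, and 2.11% of all genes were called. In susceptible mice 8 of 9 were below 0, with a median of -0.21 against 0.02, and 4.5% of all genes were called. These comparisons share the same controls. Between susceptible and resilient mice the median was -0.13 against -0.01 for all genes, and 2.03% of all genes were called.

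The largest difference in B6 was that of the complement receptor gene Cr2. It stood at 67.8, 51.0, 46.7, 51.9 and 67.7 CPM in controls, at 33.0, 42.6, 44.7, 57.5 and 75.8 CPM in resilient mice and at 38.9, 70.6, 32.4, 41.7 and 46.7 CPM in susceptible mice. The 3 groups overlapped, and the highest and lowest mice were defeated ones. Its log2 difference between susceptible mice and controls was -0.34 with a 95% interval from -0.82 to 0.13 (limma P = 0.151; exact permutation p = 0.151). The intervals of all members in this comparison reached from -0.86 (Blk) to 0.50 (Ebf1). Without B6 susceptible replicate 2, Cr2 was called as lower in susceptible mice, 1 gene against none with all mice. The share of all genes called in that fit is not given here.

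Platelet genes were called in the same comparison. In B6 susceptible mice 7 of 10 platelet genes were nominally higher than in controls, with a median log2 change of 0.86, and summed platelet log2 CPM ran from 12.1 to 13.6 against 10.8 to 12.7 in controls. None of 10 neutrophil genes and none of 11 red cell genes passed. Of 15 T cell genes Lat alone was higher. All 8 NK cell genes had negative values, with a median of -0.26, and none passed. In resilient mice against controls, 14 of 15 T cell genes were negative, with a median of -0.19, and Il7r was called lower. The 8 NK cell genes were all negative there, with a median of -0.36, and none passed. The 10 platelet genes were all positive there, with a median of 0.51, and none passed. The part of these cells in the B cell values was not tested.

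The direction in B6 resilient mice was not the same within each code. Mouse codes begin with EC3 or EC4 in B6, and what the number stands for is not given in the labels. Within EC3 (3 resilient mice and 2 controls) the median difference of the 9 genes was -0.54 log2 with all 9 negative, and within EC4 (2 and 3 mice) it was 0.37 with all 9 positive. The relation between resilient mice and controls was therefore not the same in both codes. These values rest on 2 or 3 mice per group. The 9 genes varied together (median correlation of pairs 0.84), so their signs are not 9 separate readings. For susceptible mice against controls the medians were -0.28 in EC3, with 2 of 9 positive, and -0.18 in EC4, with none positive.

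**Figure D4:**
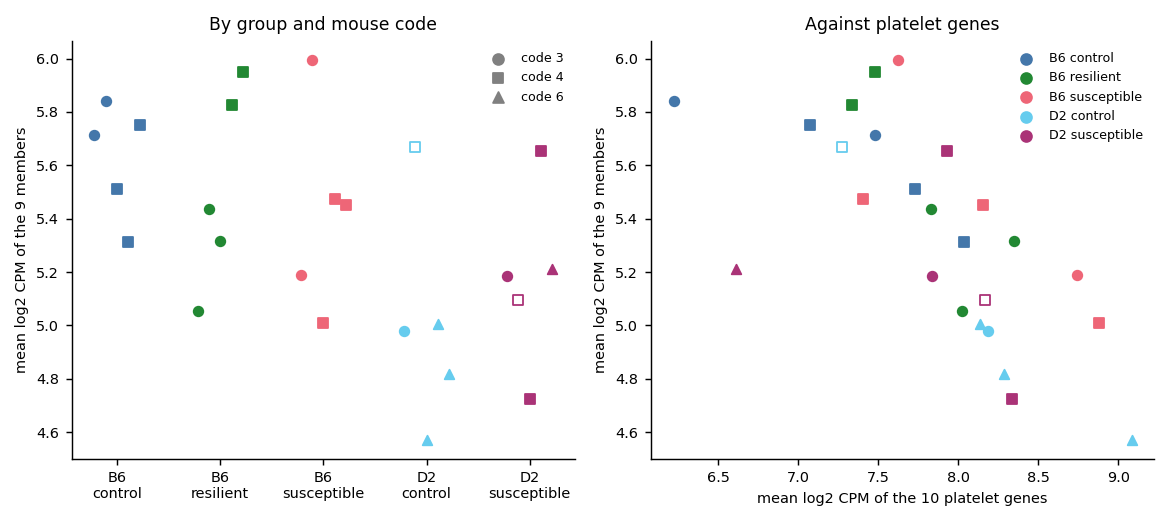
Mean log2 CPM of the 9 B cell genes in each mouse by group, with symbols for the number in the mouse code (left), and against the mean log2 CPM of 10 platelet genes (right); open symbols are the 2 D2 mice with conflicting records. The mean runs from 4.57 to 6.00 over the 25 mice, and mice with higher platelet values lie towards lower means of the B cell genes.

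In D2 mice the comparison of susceptible mice with controls depended on the records, as did the strain comparison above and the interaction below. By the labels no B cell gene passed (limma; none had an unadjusted P under 0.05), while 8 of 9 point estimates were above 0, with a median log2 change of 0.26 against -0.02 for all genes, of which 1.57% were called. With the groups of the column names 4 of 9 were nominally higher in susceptible mice (Cd79a, Cd22, Fcer2a and Cr2) and none lower, where 2.42% of all genes were higher and 6.8% called in both directions. Without both mice Cd79a alone was called, where 1.27% of all genes were higher. No member had Padj under 0.05 in any of these 3 fits.

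Cd79a stood at 5.68, 8.52, 3.50, 5.96 and 5.49 CPM in D2 controls and at 7.68, 6.14, 5.70, 9.53 and 7.95 CPM in D2 susceptible mice, in both cases with replicate 2 as the mouse with conflicting records. Among the 8 other mice, the controls were at 3.50 to 5.96 and the susceptible mice at 5.70 to 9.53 CPM, with a narrow overlap. By the labels its log2 change was 0.38 ± 0.24 (limma P = 0.135; exact permutation p = 0.175). By the column names it was 0.56 ± 0.23 (limma P = 0.0202, Padj = 0.686; exact permutation p = 0.0238), with means of 2.96 and 2.39 log2 CPM. Without both mice it was 0.59 ± 0.26 (limma P = 0.0350), and the exact permutation p was 0.0571, where 4 against 4 cannot go below 0.0286.

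Cr2 stood at 32.6, 67.4, 36.3, 45.7 and 34.0 CPM in D2 controls and at 57.2, 49.2, 35.5, 68.8 and 50.3 CPM in D2 susceptible mice. Replicate 2 was the highest of the controls, and replicate 3 the lowest of the susceptible mice. Its log2 change was 0.30 ± 0.23 by the labels (limma P = 0.212) and 0.48 ± 0.22 by the column names (limma P = 0.0379; exact permutation p = 0.0556). Cd22 changed by 0.26 ± 0.24 by the labels and 0.48 ± 0.22 by the column names (limma P = 0.281 and 0.0431; exact permutation p = 0.397 and 0.111). Fcer2a changed by 0.29 ± 0.24 and 0.46 ± 0.23 (limma P = 0.230 and 0.0496; exact permutation p = 0.317 and 0.0952). Without both mice Cr2 changed by 0.48 ± 0.24, Cd22 by 0.46 ± 0.24 and Fcer2a by 0.47 ± 0.25, and none of them passed (exact permutation p = 0.0857, 0.171 and 0.0857). The abundant Cd79b and Ms4a1 did not pass in either grouping, with 0.26 and 0.20 by the column names, and neither did Blk, Pax5 and Ebf1. The value of Ebf1 changed sign, from -0.28 by the labels to 0.25 by the column names.

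The lists around the members followed the records too. By the labels no gene of the signalling, immunoglobulin, transcription factor, receptor or class II lists passed. By the column names 4 genes of the signalling list, among them Siglecg, were higher and Lyn, Dapp1 and Cd81 lower, and 2 of 6 immunoglobulin genes, Iglc1 and Iglc2, were higher. Pou2af1 of the transcription factors and H2-Ob of the class II genes were higher as well. Siglecg changed by 0.38 ± 0.25 by the labels and 0.64 ± 0.23 by the column names (limma, adjusted p = 0.999 and 0.686). In the same comparison 6 of 10 platelet genes were lower by the column names and none by the labels, with medians of -0.77 and -0.42, and summed platelet log2 CPM by the column names ran from 11.3 to 13.1 in susceptible mice and from 12.9 to 13.9 in controls. No T cell or neutrophil gene passed in either grouping. The part of these cells in the B cell values was not tested.

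Within codes, the D2 difference could be read from few mice. By the labels the median difference of the 9 genes was 0.15 in ED3 (1 mouse against 1), -0.45 in ED4 (3 against 1) and 0.39 in ED6 (1 against 3). By the column names the ED4 value was 0.17, with 8 of 9 genes positive, and the other 2 codes did not change. With code as a term in the fit no member was called in either grouping, and the median change was 0.03 by the labels and 0.32 by the column names. Over all genes 140 were called by the labels and 698 by the column names in these fits.

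Whether the change in susceptible mice differed between D2 and B6 was tested as an interaction. By the labels no B cell gene passed (none had an unadjusted P under 0.05), with a median difference of 0.48 against -0.01 for all genes, of which 5.37% were called. By the column names 5 of 9 genes had a more positive change in D2 than in B6 (Cd79a, Cd22, Blk, Fcer2a and Cr2), where 2.61% of all genes were called in that direction. Cr2 had the largest difference, at 0.82 ± 0.31 (limma, adjusted p = 0.278), and by the labels it was 0.64 ± 0.33 (limma, adjusted p = 0.927). Without both mice the same 5 genes were called, where 1.54% of all genes were called in that direction. Platelet genes had a more negative change in D2 than in B6, with 9 of 10 called by the labels and 10 of 10 by the column names. Of all 13084 genes, 598 were called in that direction by the labels and 979 by the column names. Without D2 control replicate 2 alone 5 B cell genes were called, without B6 susceptible replicate 2 alone 3, and without B6 control replicate 3 or D2 susceptible replicate 3 alone 1. The shares of all genes in these fits are not given here, so these counts cannot be set against them.

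The 9 genes varied together from mouse to mouse. After subtraction of each group's mean, the correlation of each gene with the mean of the 8 others over the 25 mice was 0.87 to 0.94 for all members except Ebf1, for which it was 0.48. Over the 36 pairs of members the median correlation was 0.84. These values describe mice that share their scaling, and the within-group SD was 0.34 to 0.45 log2 for each gene. In B6, susceptible replicate 2 was among the 3 highest of the 15 mice for 9 of 9 genes and resilient replicate 5 for 7, whereas susceptible replicate 3 and resilient replicate 1 were each among the 3 lowest for 8. In D2, control replicate 2 was among the 3 highest of the 10 mice for 9 of 9 genes and susceptible replicate 4 for 8, and control replicate 3 and susceptible replicate 3 were among the 3 lowest for 8. High and low mice thus occurred in the defeated groups of both strains.

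The 10 genes outside the members with the highest such correlation to the member mean were Blnk (0.97), Bank1 (0.97), Pou2af1 (0.95), Ighm (0.95), H2-Ab1 (0.94), Sh3bp5 (0.94), Abca1 (0.94), Fchsd2 (0.94), Ttpal (0.94) and H2-Eb1 (0.93). Of these, 6 were on the B cell lists, including the adaptor genes Blnk and Bank1, the coactivator gene Pou2af1 and the IgM heavy chain gene. Abca1 encodes a lipid transporter that many cells use. The median correlation was 0.90 for immunoglobulin chains, 0.92 for class II genes, 0.87 for survival and homing receptors, 0.79 for transcription factors and 0.71 for receptor signalling, against 0.03 for all genes. It was 0.58 for T cells, 0.43 for plasmacytoid dendritic cells, 0.33 for plasma cells, 0.24 for monocytes, 0.03 for NK cells, 0.03 for B cell precursors and -0.09 for neutrophils. Platelet genes were at -0.75 to -0.61, all 10 negative, and red cell genes at -0.76 to -0.16, all 11 negative.

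miR-150-5p, a miRNA abundant in mature lymphocytes, was measured in separate libraries of the same 25 mice. Its mean level was 8.58 ± 0.67 log2 CPM in B6 controls, 8.08 ± 0.98 in B6 resilient mice, 8.35 ± 0.76 in B6 susceptible mice, 9.26 ± 0.87 in D2 controls and 8.95 ± 0.52 in D2 susceptible mice (SD, n = 5 each). It passed in none of the comparisons with all mice, of 299 miRNAs tested. The difference between D2 and B6 controls was 0.69 ± 0.45 (SE; limma, adjusted p = 0.374) by the labels, 0.34 ± 0.45 by the column names and 0.39 ± 0.46 without both conflicting mice, with D2 higher each time. By the labels it passed there when B6 control replicate 2 or D2 control replicate 3 was left out, at 0.95 and 0.97, and for B6 resilient mice against controls when resilient replicate 5 was left out, at -0.89. Between D2 susceptible mice and controls it was -0.32 ± 0.45 by the labels and 0.38 ± 0.45 by the column names (limma, adjusted p = 0.910 and 0.737).

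Across mice of a strain, Cd79a and miR-150-5p were positively correlated. In the 15 B6 mice Pearson's r was 0.65 (permutation p = 0.0104, Padj = 0.0207) and Spearman's rho 0.62 (permutation p = 0.0165, Padj = 0.0331). Without the 2 mice farthest from the median of miR-150-5p r was 0.57, and within codes it was 0.63 (EC3, 7 mice) and 0.68 (EC4, 8 mice). In the 10 D2 mice r was 0.65 (permutation p = 0.0346, Padj = 0.0346) and rho 0.58 (permutation p = 0.0873, Padj = 0.0873). Without the 2 farthest mice r fell to 0.31, so that the D2 relation rested on those mice, and no D2 code held the 6 mice needed for a value. These were the 2 relations computed, with the strains kept apart.

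**Figure D5:**
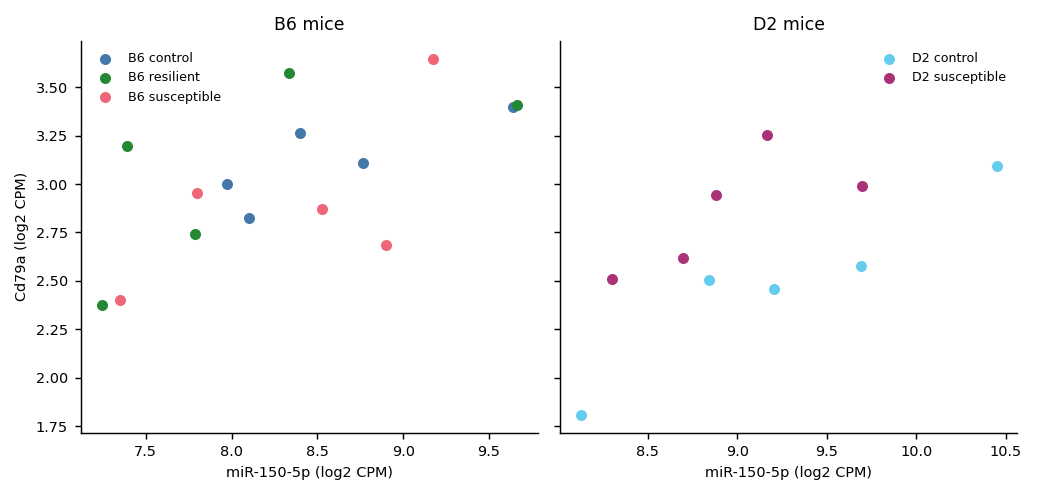
log2 CPM of Cd79a (mRNA library) against log2 CPM of miR-150-5p (miRNA library) for each mouse, B6 on the left (r = 0.65, n = 15) and D2 on the right (r = 0.65, n = 10), coloured by the labelled group. Points rise from lower left to upper right in both strains, with the groups intermixed in B6. In D2, r falls to 0.31 without the 2 mice farthest from the median of miR-150-5p.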

How the data were processed

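Blood mRNA (data set F) and blood miRNA (data set G) of 25 mice were used, with groups taken from the labels. For data set F the authors depleted globin and ribosomal RNA, aligned single-end reads to GRCm38 with STAR and counted exon reads with HTSeq. For data set G they aligned small RNA reads to miRBase miRNAs with miRDeep2 and to GRCm38 with bowtie, and counted mature miRNAs with miRDeep2. In both sets they kept genes or miRNAs with at least 1 CPM in at least 6 samples and deposited voom log2 CPM values. The unit is thus log2 CPM per gene or miRNA, scaled to effective library sizes. Reads were recovered from each deposited value, and 100.0% were whole within 0.0001 reads. In all, 13054 of 13084 genes were matched to a symbol in GENCODE M21. Data set F and G columns were mapped by mouse code, and the AGO2 tables were not used here.

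Differences were fitted with limma 3.58.1 in R 4.3.3 on all genes and all 25 mice in 1 model of 5 groups, with empirical Bayes moderation and a mean-variance trend. The study's methods name limma with eBayes, and the single model over both strains was chosen here. Calls needed P under 0.05 together with a change of 1.2-fold or more, as in the study, and Padj is the Benjamini-Hochberg value over all genes. Single genes were also compared by exact two-sided permutation tests, and correlations by 100000 permutations (scipy 1.17.1, Python 3.11.15). The procedure was tested on simulated data.

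The members, the marker lists, the motifs and the genes named were chosen with earlier results of these data known. All 9 members were named, up to 4 genes with the smallest p of each other list, and the 10 genes most like the member mean. Further called genes of the lists were named after their values had been seen. Alternatives were other weights, scalings, normalizations, filters and added reads, code (within each strain) as a covariate, the column-name groups, and each mouse left out. Code as a covariate with the column-name groups was added after the data had been seen. The values of 1 list gene are not reported here.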

Additional observations from a re-analysis of the deposited data

How the results depend on the processing

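In B6 mice no B cell gene was called in any of the 3 comparisons under any weighting, scaling, normalization or filter tried. For D2 against B6 controls, where 7 genes were called, scaling to total reads or to reads without red cell and platelet genes left 1 and code as a covariate 2. Of all 13084 genes, 1494 were called lower in the main fit, 822 and 890 with these scalings and 1293 with code as a covariate. The cause was not tested. For D2 susceptible mice against controls, where none was called, sample weights gave 2, the column-name groups 4 and leaving out both conflicting mice 1. Over all genes and both directions, 206 were called in the main fit and 992, 890 and 519 in these fits. For the interaction, where none was called, sample weights gave 1, the column-name groups 5, leaving out both mice 5, and code as a covariate with the column-name groups 1. The counts over all genes were 703 in the main fit and 764, 1321, 1070 and 1089 in these fits. With single mice left out, the counts ran from 0 to 1 for B6 susceptible mice against controls, from 2 to 8 for D2 against B6 controls, from 0 to 2 for D2 susceptible mice against controls and from 0 to 5 for the interaction. Shares of all genes are not given for the fits without a single mouse, so a general change in calls cannot be told apart. miR-150-5p ran from -0.89 to -0.23 for B6 resilient mice against controls and from 0.39 to 0.97 for D2 against B6 controls. Scaling to total reads moved the median of all genes to -0.16 in B6 resilient and -0.13 in B6 susceptible mice. No paired analysis was possible because the replicate numbers of these groups do not mark shared animals, litters or days. Depth limits Cd79a and Ebf1 most, with 49 reads each in their lowest mouse.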
